A study of Mus musculus with 11 samples.

Results

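The regions described here are those of transfer RNA (tRNA) genes, taken as every region of the deposited table whose symbol begins with TRNA_, and they number 428 of 21534 regions. They were grouped by the amino acid in the symbol, which gave 22 groups, and by 1 Mb locus, which gave 135 loci on 20 chromosomes. Lamin B1 contacts were measured with DamID-seq, in which the bacterial adenine methyltransferase Dam is fused to LMNB1, a filament protein of the nuclear lamina, so that DNA near the lamina gains adenine methylation. All cells were primary oligodendrocyte precursor cells of wild-type C57BL/6 mice, taken from the cortex at postnatal day 7 and transduced for 1 day with a lentivirus carrying Dam-LMNB1 or untethered Dam. The groups were OL (oligodendrocyte; 72 h in differentiation medium), with Dam-LMNB1 libraries 18, 19 and 20, and OPC (72 h in proliferation medium), with Dam-LMNB1 libraries 8, 9 and 10. Each score sets 1 of these 6 libraries against a pool of untethered Dam libraries, which was made of libraries 12, 13 and 14 for OL and of 2 and 4 for OPC.

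The labels call the OL group oligodendrocytes by source and still give primary OPCs as its cell type, and DamID holds no expression values with which marker genes could be checked. A library averages over all cells of a culture, so a shift in every cell and a larger shift in some of them cannot be told apart. Read depth is unknown, since the deposited values are scores. A score above 0 is read as more methylation by Dam-LMNB1 than by free Dam, and the log base is not given, so differences are stated in score units. No label says whether libraries of a group are separate cultures or animals, and p-values therefore measure a spread between libraries that may be only technical. All 3 scores of a condition share 1 Dam denominator, and the p-values leave out the variation of that denominator.

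Transfer RNAs are the short adapter RNAs that carry amino acids to the ribosome and read the codons of messenger RNA with their anticodon. Their genes are transcribed by RNA polymerase III from promoter elements inside the gene, the A box and the B box, which the factor TFIIIC binds before TFIIIB recruits the polymerase. Mammalian genomes hold many copies for most anticodons, often in clusters that mix amino acids and sometimes in tandem arrays of near-identical copies. In the mouse the largest cluster lies among the histone genes of chromosome 13. The lamina, at the inner face of the nuclear envelope, holds mostly gene-poor and weakly transcribed chromatin.

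The gene names used below come from RefSeq (GRCm38.p6, the assembly of mm10), which matched 399 of the 428 regions. A name such as n-TAagc16 gives the amino acid in its one-letter code (A, alanine), the anticodon (agc) and a copy number, and the other 29 regions are named by the identifier in the table. Each region covers a tRNA gene with 10000 bp upstream and 2000 bp downstream, so that nearly all of its 12070 to 12127 bp is flank. Of the 428 regions, 303 overlapped another tRNA region and so shared reads with it. They formed 186 stretches of overlapping regions, of which 125 held 1 region. Members of a stretch are therefore not independent, and no source used here gives how reads were placed between near-identical copies, so the value of a single copy in an array is uncertain.

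To show what such a gene is, the sequences of 5 members are given, the ones that lie whole inside a RefSeq promoter window of a neighbouring gene. They are written 5′ to 3′ on the strand of the tRNA gene, from GRCm38.p6, and capitals mark the anticodon and the match to the B box pattern GTTCNANNC (for the proline gene, whose name gives no anticodon, the B box match only). The genes are n-TAagc16 at chr13:21222586-21222657 on the plus strand, n-TVcac9 at chr13:23446142-23446214 on the minus strand, the proline gene uc033hbi.1 at chr17:23538766-23538837 on the minus strand, n-TTagt9 at chr7:35234770-35234843 on the minus strand and n-TRtcg5 at chr7:79466419-79466491 on the plus strand.
n-TAagc16: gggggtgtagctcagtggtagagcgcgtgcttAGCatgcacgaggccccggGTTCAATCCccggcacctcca
n-TVcac9: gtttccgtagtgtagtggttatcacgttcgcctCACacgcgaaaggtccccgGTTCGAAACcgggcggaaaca
uc033hbi.1: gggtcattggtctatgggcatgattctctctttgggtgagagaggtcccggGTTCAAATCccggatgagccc
n-TTagt9: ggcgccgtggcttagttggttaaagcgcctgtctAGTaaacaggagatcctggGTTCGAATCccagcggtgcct
n-TRtcg5: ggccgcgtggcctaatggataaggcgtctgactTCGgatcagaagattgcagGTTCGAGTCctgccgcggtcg
All 5 genes held the pattern on the strand of the tRNA gene. In the 32851 RefSeq promoter windows of 300 bases the pattern was searched on both strands and was present in 9.324%. The windows are longer than the genes, so the 2 searches are not like measures. The match is a description of letters and not a measurement of TFIIIC binding. The 5 regions lay below 0 in all 6 libraries. The n-TAagc16 region, from the chromosome 13 cluster, scored −1.36, −1.39 and −0.87 in OL libraries 18, 19 and 20, against −1.78, −1.66 and −1.71 in OPC libraries 8, 9 and 10. It was higher in OL by 0.51 ± 0.13 score units (SE; adjusted p = 0.0182, limma). The n-TTagt9 region of chromosome 7 scored −2.62 ± 0.20 in OL and −2.59 ± 0.25 in OPC (SD, n = 3 each) and did not pass the test (adjusted p = 0.855, limma).

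Most tRNA regions scored below 0 in both conditions, that is, away from the lamina by this measure. Each condition's mean was tested against 0 over all 21534 regions with limma (two-sided, Benjamini-Hochberg adjustment, threshold 0.05), and a region past the threshold is said to be called. In OL 97 tRNA regions were called above 0, which is 22.7% of them, against 25.9% of all regions, and 308 were called below 0 (72.0%, against 70.9% of all regions). In OPC 76 were called above 0 (17.8%, against 25.5% of all regions) and 322 below 0 (75.2%, against 71.4%). The shares below 0 were thus close to those of the whole table in both conditions, and the share above 0 in OPC was the value farthest from it. Counted with the first region of each of the 186 stretches, 57 were above and 121 below 0 in OL, and 55 were above and 124 below in OPC, so the low share above 0 in OPC is not present when each stretch counts once.

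The median score of the tRNA regions was −1.39, −1.62 and −1.56 in OL libraries 18, 19 and 20, against −1.76, −1.74 and −1.74 in OPC libraries 8, 9 and 10. All 3 OL medians lay above all 3 OPC medians, and library 18 lay apart from the other OL libraries. Between 20.1% and 26.6% of the tRNA regions had a score above 0 in a single library, with a mean of 25.1% ± 1.43 in OL and 21.7% ± 1.35 in OPC (SD, n = 3 each). Over all regions the same shares were 27.4% ± 0.755 in OL and 27.0% ± 0.266 in OPC. Of the 428 tRNA regions, 75 were above 0 in all 6 libraries, 308 were below 0 in all 6 and 45 had both signs. The spread between libraries was wider for tRNA regions than for the table as a whole, with a median SD of 0.164 in OL and 0.141 in OPC, against 0.110 in OL and 0.0923 in OPC over all regions. It was also wider in microRNA regions (0.143 in OL and 0.144 in OPC) and in small nucleolar RNA regions (0.146 in OL and 0.152 in OPC). A wider spread was thus not particular to tRNA regions. The tRNA regions are also narrower, at a median of 12072 bp against 26250 bp. The part of width in the wider spread was not tested.

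**Figure D1:**
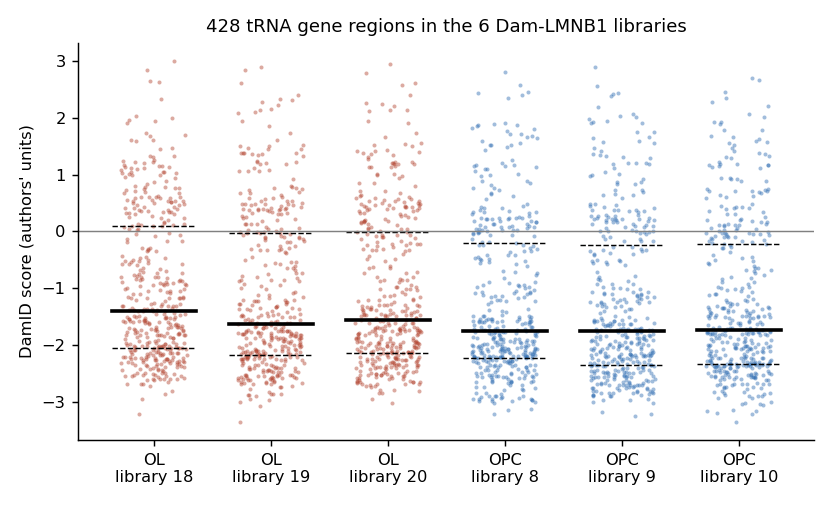
Scores of the 428 tRNA regions in each library. Points are regions, the x axis gives the 6 Dam-LMNB1 libraries (OL at left in red, OPC at right in blue), the y axis the DamID score in the authors' units, the thick line the median and the dashed lines the quartiles. The medians run from −1.62 to −1.39 in OL and from −1.76 to −1.74 in OPC, and a minority of regions lies above 0 in every library.

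The highest tRNA regions were single ones, mostly far from other genes. The isoleucine gene region n-TIaat2 (chr4:27894779-27906852) had the highest mean in both conditions, with 2.85, 2.89 and 2.95 in OL against 2.80, 2.89 and 2.70 in OPC, and its nearest region of another gene, the ephrin receptor gene Epha7, lay 896278 bp away. The leucine region n-TLcag1 (chr3:24161025-24173107) scored 3.0, 2.83 and 2.78 in OL, against 2.35, 2.19 and 2.46 in OPC. Its groups did not overlap and it was higher in OL by 0.54 ± 0.10 (SE; adjusted p = 0.00381, limma). The nearest region, that of the synaptic adhesion gene Nlgn1, was 1256733 bp away, the longest such distance among the tRNA regions, and had a mean of −0.37 in OL. The lysine region n-TKctt7 (chr1:110902747-110914819), which overlaps the cadherin gene Cdh19, had a mean of 2.62 in OL and 2.55 in OPC, and the isoleucine region n-TIaat1 of chromosome 16 had 2.54 in OL and 2.45 in OPC.

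The lowest regions, taken at most 1 per stretch, overlapped regions of other genes. The glutamine region n-TQctg9 (chr9:64728046-64740117), which overlaps the Rab GTPase gene Rab11a, had the lowest mean in OL, with −3.21, −3.36 and −2.68 in OL against −2.99, −2.83 and −3.16 in OPC. The isoleucine region n-TIaat13 of chromosome 1 had a mean of −2.84 in OL and −2.99 in OPC, and the proline region n-TPtgg7 of chromosome 3, which overlaps Elf2, had −2.78 in OL and −3.02 in OPC. The leucine region n-TLcag10 of chromosome 13 was the lowest in OPC, with a mean of −2.53 in OL and −3.16 in OPC. In its stretch the threonine region n-TTagt6, with −2.69 in OL and −3.05 in OPC, overlapped no other gene region. The nearest to n-TTagt6, that of Btn1a1, lay 2297 bp away. The suppressor region uc033ghw.1, the only region with the symbol for a tRNA that reads a stop codon, had a mean of −2.73 in OL and −2.38 in OPC. The symbols do not separate initiator from elongator methionine genes.

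The selenocysteine tRNA places selenocysteine at UGA codons of selenoproteins, and its regions, which number 2, lay on opposite sides of 0. The region uc033ihn.1 (chr5:5617681-5629751), which overlaps Cfap69, scored 1.17, 1.37 and 1.51 in OL against 1.56, 1.00 and 1.13 in OPC. The region uc033iwx.1 (chr7:19291244-19303329), which overlaps Rtn2, scored −1.59, −1.75 and −1.77 in OL against −1.88, −2.14 and −1.79 in OPC. Every library put the chromosome 5 copy above 0 and the chromosome 7 copy below it, and neither passed the test of OL against OPC (adjusted p = 0.542 and 0.127, limma).

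Members were spread unevenly. Of the 135 loci, 97 held 1 tRNA region, while the 14 loci with at least 5 held 278 of the 428 regions. In 8 of these 14 loci every member was called below 0 in both conditions. Across all 135 loci, every member was called below 0 in OL at 85 loci and above 0 at 39. The 14 larger loci therefore fell mostly on the low side, with the exceptions of a cysteine array on chromosome 6 and an alanine cluster on chromosome X.

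**Figure D2:**
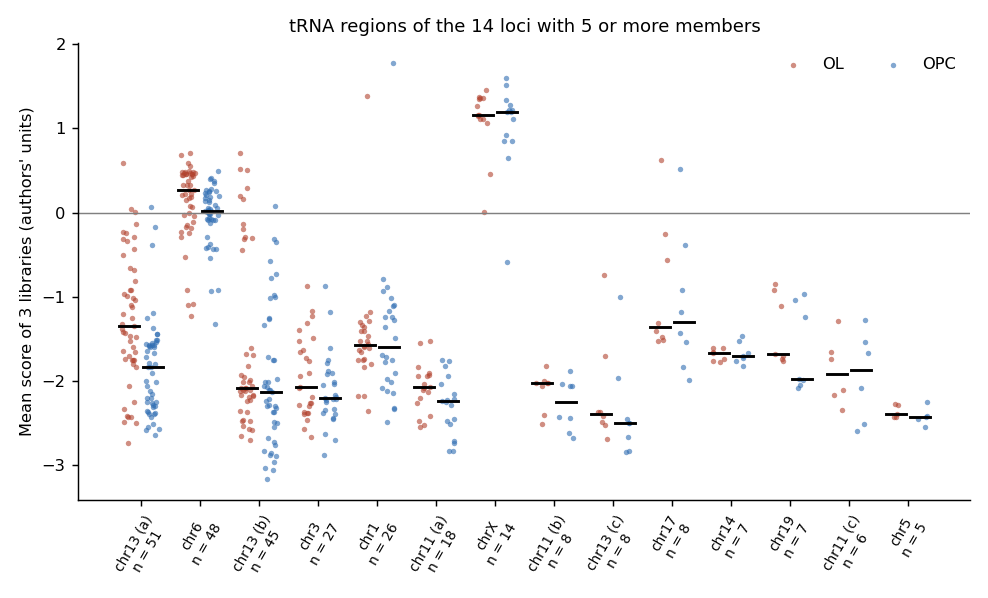
Mean scores of the tRNA regions in the 14 loci with at least 5 members. The x axis gives the loci by chromosome, with the number of regions n; on chromosome 13 a, b and c are the 21, 23 and 22 Mb loci, and on chromosome 11 they are the 69, 48 and 97 Mb loci. Each point is the mean of 3 libraries for 1 region (y axis, DamID score in the authors' units; OL red at left of each pair, OPC blue at right), and bars are medians. The X locus lies near 1.16 in OL, the chromosome 6 array has medians of 0.27 in OL and 0.02 in OPC, and the medians of the other 12 loci are below −1 in both conditions.

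The cysteine array of chromosome 6 (chr6:48123937-48373603) lay close to 0. It held 48 regions, all of the anticodon GCA, of the 57 cysteine regions in the table. Their means ran from −1.22 to 0.71 in OL, with 31 called above and 7 below 0, while in OPC 16 were called above and 10 below. The array differed from its surroundings, since all 25 regions of other genes in the same 1 Mb were called below 0 in both conditions, with a median of −1.72 in OL. Scores varied along the array: the first stretch of 9 regions had a median of −0.17 in OL and −0.09 in OPC, the next stretch of 5 had −0.53 in OL and −0.43 in OPC, and the stretch of 22 had 0.38 in OL and 0.06 in OPC. In all, 14 of the 48 regions of the array rose in OL and 1 fell, against 23% and 10.9% of all regions. Of these rises, 11 lay in the stretch of 22 overlapping regions. The largest rise was in n-TCgca2, with 0.59, 0.41 and 0.47 in OL against 0.05, −0.14 and −0.17 in OPC (0.57 ± 0.08, SE; adjusted p = 0.00159, limma). The region that fell, n-TCgca41, had a mean of −0.92 in OL and −0.53 in OPC. The placing of reads between these near-identical copies could change the value of each, and this was not tested.

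Outside the array, the 9 other cysteine regions had a median of −1.65 in OL and −1.46 in OPC, with 2 above and 7 below 0 in each condition. None was called between conditions (limma; 1 was higher in OL at an unadjusted p under 0.05, and the ordinary linear model called 0). Their lowest was n-TCgca18 on chromosome 11, which overlaps the ribosomal protein gene Rpl23 and had a mean of −2.34 in OL and −2.59 in OPC. The same anticodon was thus found on both sides of 0.

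The alanine cluster of chromosome X was the only large locus with a clear positive score. Its 14 regions (chr X, 136 Mb) comprised 13 of alanine and 1 of lysine. All 13 alanine regions were called above 0 in OL and in OPC, with means from 0.45 to 1.45 in OL, and none was called between conditions (limma; at an unadjusted p under 0.05, 2 were higher and 1 lower in OL, and the ordinary linear model called 0). The highest over all 6 libraries was n-TAtgc6, with a mean of 1.36 in OL and 1.59 in OPC, and the highest in OL alone was n-TAcgc4, which scored 1.61, 1.36 and 1.40 in OL against 1.00, 1.21 and 1.46 in OPC. The surrounding 23 regions of other genes had a median of −0.55 in OL, with 4 called above and 16 below 0. The lysine region n-TKctt19, which lies before the first alanine region and overlaps Tceal5, stood apart. It scored −0.07, 0.14 and −0.06 in OL against −0.60, −0.50 and −0.65 in OPC, and rose by 0.59 ± 0.08 (SE; adjusted p = 0.00135, limma). Its OL mean of 0.0012 could not be told from 0 (adjusted p = 0.984, limma).

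The 25 alanine regions outside the X cluster had a median of −1.62 in OL and −1.79 in OPC, with 2 above and 22 below 0 in OL and 0 above and 24 below in OPC. Of these, 14 rose in OL and none fell (limma; 0 were lower at an unadjusted p under 0.05 or by the ordinary linear model). By anticodon, the medians in OL were 1.15 for the 9 regions with CGC, 1.06 for the 11 with TGC and −1.10 for the 13 with AGC. None of the AGC regions is in the X cluster. The CGC and TGC regions called above 0 in OL, 5 and 7 of them, were all in that cluster. The other 4 with CGC and 4 with TGC lay outside it and were called below 0, so the positive medians went with the cluster.

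The other loci were low as blocks. The 27 regions at 96 Mb of chromosome 3, beside the histone genes there, had a median of −2.07 in OL and −2.20 in OPC and included 7 of the asparagine and 6 of the histidine regions. They ran, by the mean of all libraries, from the histidine region n-THgtg1, with −2.66 in OL and −2.88 in OPC, to the asparagine region n-TNgtt4, with −0.88 in OL and −0.87 in OPC. The 18 regions at 69 Mb of chromosome 11, around the genes Aurkb and Per1, had a median of −2.07 in OL and −2.24 in OPC, and 6 of them rose. The 7 regions at 12 Mb of chromosome 19 were all called below 0, with a median of −1.68 in OL and −1.97 in OPC, although 32 of the 36 regions of other genes in that 1 Mb were called above 0 in OL, with a median of 1.62. Likewise the 8 regions at 22 Mb of chromosome 13 had a median of −2.39 in OL and −2.49 in OPC, while 25 of the 31 other regions there were above 0 in both conditions. The 8 regions at 23 Mb of chromosome 17 split, as the lysine region n-TKctt13 had a mean of 0.62 in OL and 0.51 in OPC while the other 7 were called below 0. On chromosomes 19 and 13 low tRNA regions thus shared a 1 Mb locus with mostly high regions of other genes, not always their nearest. At 22 Mb of chromosome 13 n-TTagt1 overlapped Hist1h2bk and n-TSgct5 overlapped Hist1h2ag, with means of −2.63 and −2.05 in OL. On chromosome 19 the nearest regions were Osbp for n-TFgaa2 (2430 bp away, −1.32 in OL) and Olfr1423 for n-TRtct1 (12134 bp, 1.70). On chromosome 17 high and low tRNA regions lay within 1 stretch.

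At 171 Mb of chromosome 1 the tRNA genes form a tandem array of glutamate, glycine, aspartate and leucine genes beside the Fc receptor genes. Single regions of this locus differed in their spread between libraries. The glycine region n-TGtcc2 had an SD of 0.19 in OL and 0.02 in OPC (n = 3 each). The glutamate region n-TEctc5 scored −0.97, −2.25 and −1.47 in OL against −0.41, −1.18 and −1.74 in OPC, so that the groups overlapped and each spanned more than 1 score unit (SE of the difference 0.358, the largest among the tRNA regions). The histidine region n-THatg1, in the same 1 Mb but overlapping Slamf7, had the only positive mean of the locus, with 1.38 in OL and 1.77 in OPC, and fell by 0.39 ± 0.10 (SE; adjusted p = 0.0141, limma). It is the only member with the anticodon ATG, and all 10 histidine regions with GTG were below 0 in OL, between −2.66 and −1.52.

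By amino acid, 18 of the 22 groups held regions called above 0 and regions called below 0 in OL. The highest group medians in OL were those of cysteine at 0.22, selenocysteine at −0.18, alanine at −0.59 and lysine at −0.66. The lowest groups with more than 1 region were tryptophan at −2.23, glutamine at −2.13 and tyrosine at −2.08. All 28 glycine, all 8 tryptophan and all 7 phenylalanine regions were called below 0 in both conditions. Of the 30 lysine regions, 12 were called above 0 in each condition, and these sat at many loci, since the 30 occupied 22 loci. Of the 44 anticodons with at least 2 regions, 21 had regions on both sides of 0 in OL.

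In the OL score, tRNA regions of 1 locus differed less than those that shared only the amino acid. Between pairs of tRNA regions from different stretches, the median absolute difference of the OL score was 0.478 for the same locus and amino acid (1084 pairs) and 0.707 for the same locus and another amino acid (2205 pairs). For pairs from different loci it was 1.160 with the same amino acid (4010 pairs) and 1.194 with another (82861 pairs). Sharing the amino acid without the locus thus came with a difference nearly as large as sharing neither. The cysteine array gave 805 of the same-locus pairs with the same amino acid, and the other 279 had a median of 0.475. The array holds only cysteine regions and gave no same-locus pair with another amino acid. The same-locus classes were therefore drawn from partly different loci. For the difference between OL and OPC the order was not the same. The median absolute difference between the pairs was 0.251 for the same locus and amino acid, 0.364 for the same locus and another amino acid, 0.304 for different loci with the same amino acid and 0.288 for neither in common. Pairs share regions, so these values are descriptions without a test.

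Regions of other genes that overlapped a tRNA region had nearly its score. They also share reads with it, and the part of this was not tested. Such an overlap was found for 219 tRNA regions, of which 213 (97.3%) had the sign of their neighbour in OL, with a median absolute difference of 0.188 and a Pearson's r of 0.887 across the 219 regions. With a gap of up to 100 kb, 128 of 175 (73.1%) had the same sign and the median absolute difference was 0.622. Among those that differed, 34 had the tRNA region above and the neighbour below 0, 24 of them in the cysteine array, and 13 had the reverse. With a gap over 100 kb, 20 of 34 had the same sign. With 1 region per stretch the same sign was found for 107 of 113 with an overlap (94.7%) and for 52 of 63 with a gap of up to 100 kb (82.5%), where the median absolute difference was 0.465. It was found for 19 of 26 with a longer gap (73.1%).

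**Figure D3:**
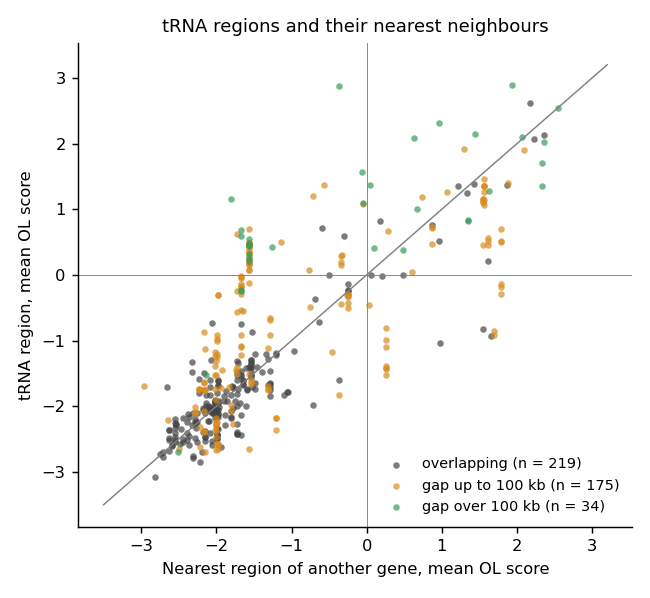
Mean OL score of each tRNA region (y axis) against that of the nearest region of another gene (x axis), both in the authors' units, as the mean of 3 libraries. Colours give the gap between the regions (overlapping, up to 100 kb, over 100 kb), and the diagonal marks equal scores. Overlapping pairs lie along the diagonal (213 of 219 with the same sign), and the column of points above the diagonal at a neighbour score near −1.6 is the cysteine array of chromosome 6.

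A different sign from the nearest overlapping region was found in 6 tRNA regions, and the 5 given here were picked out after their values were seen. The glutamate region n-TEctc9 on chromosome 10 had a mean of −0.83 in OL beside 1.54 for Ncoa7, the serine region n-TStga3 had −0.94 beside 1.66 for the catenin gene Ctnna3, and the phenylalanine region n-TFgaa4 had −1.04 beside 0.97 for the olfactory receptor gene Olfr1368. In the opposite direction, the serine region n-TSgct2 had 0.59 beside −0.30 for Zfp389 and the glutamine region n-TQttg1 had 0.71 beside −0.60 for Mir3473a. A region of a long gene averages over far more sequence than the 12 kb of a tRNA region. The part of region length in the differing signs was not tested.

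Gene context differed between high and low members. Of the 97 regions above 0 in OL, 12 (12.4%) overlapped a region of another gene, against 201 of the 308 below 0 (65.3%). With 1 region per stretch in each class the shares were 12 of 57 (21.1%) and 92 of 125 (73.6%). The median number of other regions in the same 1 Mb was 23 for the high and 35 for the low regions, and 7 and 24 with 1 region per stretch. High tRNA regions thus overlapped other genes less often and had fewer of them nearby, by these counts and without a test.

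Between conditions, more tRNA regions rose than fell. In OL against OPC 117 tRNA regions rose, which is 27.3% of them, against 23% of all regions, and 19 fell (4.44%, against 10.9% of all regions), while 292 passed in neither direction. The median difference was 0.15 score units over the tRNA regions and 0.10 over all regions. Among small nucleolar RNA regions 33 of 109 rose (30.3%) and 6 fell, with a median difference of 0.227. Among microRNA regions 257 of 1041 rose (24.7%) and 93 fell, with a median difference of 0.126. More rises than falls were thus not particular to tRNA regions. The libraries of OL and OPC did not overlap in 169 tRNA regions (39.5%, against 48.9% of all regions), with OL the higher in 146 and the lower in 23. Of all calls, 86.0% were rises among tRNA regions and 67.9% over the whole table. When the libraries were first brought to the same distribution by quantile normalization, 83 tRNA regions rose and 23 fell (78.3% of calls higher), against 50.5% of calls higher over all regions, and 81 of the 117 rises were called again.

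Counted once per stretch, 45 of 186 tRNA regions rose (24.2%) and 17 fell (9.14%), shares near those of the whole table. The number of falls dropped when any library was left out. It was 10 without OL library 19 or 20 and 12 without OPC library 9. It was 14 without OPC library 8 or 10 and 18 without OL library 18. Rises also became fewer in these fits, at 92 to 112. Whether the values of single libraries or the smaller number of libraries lowered the counts was not tested. Most changes left a region on its side of 0, since 81 of the 117 rises had a score below 0 in all 6 libraries and 12 had a score above 0 in all 6. The authors' deposited table gives 7 tRNA regions with an adjusted p under 0.05, which is 1.64% of them, against 3.14% of all regions. All 7 were higher in OL, lay on chromosome 13 and were among the 117.

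Many of the rises lay on chromosome 13, where the 21, 22 and 23 Mb loci hold 104 of the tRNA regions and the main histone gene cluster. Of these 104 regions, 58 rose (55.8%, against 23% of all regions) and 1 fell (0.962%, against 10.9%), and the median difference was 0.43. Of the 324 tRNA regions elsewhere, 59 rose (18.2%) and 18 fell, with a median difference of 0.12. Other genes in the same 3 loci moved less: 39 of 129 regions rose (30.2%), 7 fell and the median difference was 0.13. The 53 histone gene regions among them, with symbols starting with Hist1, were all below 0 in both conditions, and 5 rose and 4 fell with a median difference of 0.06. These loci were chosen after the rises were seen, so their count is a description. The 59 regions at 21 and 22 Mb form 14 stretches of overlapping regions and the 45 at 23 Mb form 5, so they are not independent. Of the rises, 14 lay in a stretch of 15 regions, 11 in a stretch of 12 and 9 in a stretch of 22. After quantile normalization 42 of the 104 regions rose (40.4%) and 2 fell, while 3348 of all 21534 regions rose (15.5%) and 3278 fell.

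Most of the 104 regions stayed below 0. In OL 92 were called below and 4 above 0, and in OPC 102 were called below and none above. Most of the regions that rose therefore had less strongly negative scores in OL than in OPC.

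**Figure D4:**
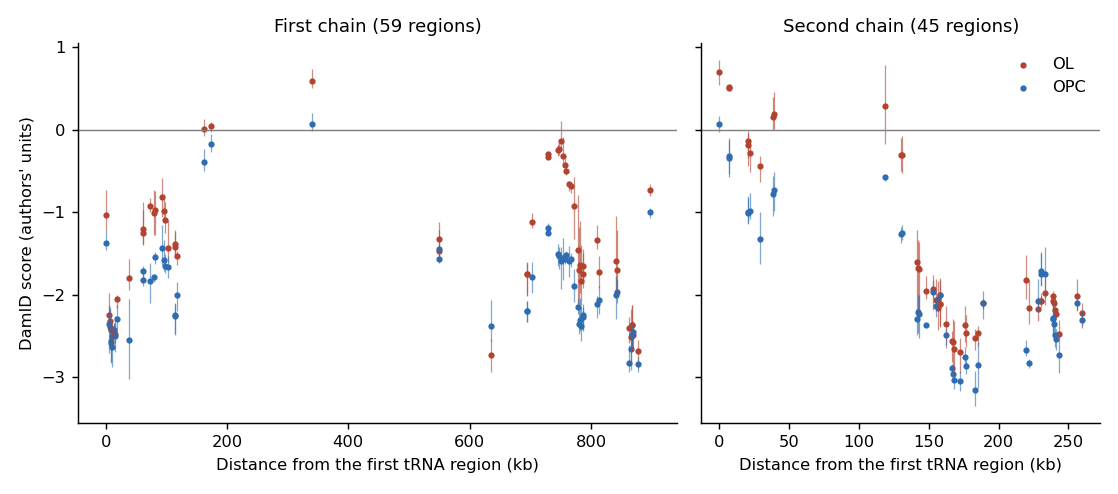
Scores of the tRNA regions along both chains of tRNA genes on chromosome 13. The x axis is the distance in kb from the first tRNA region of the chain (left panel, the 59 regions of the 21 and 22 Mb loci; right panel, the 45 regions of the 23 Mb locus), the y axis the DamID score in the authors' units. Points are means of 3 libraries and vertical lines span the lowest to the highest library (OL red, OPC blue). In the left panel the stretch with the largest differences lies at −0.68 in OL and −1.59 in OPC by its median, while the 9 regions of the first stretch have a median of −2.42 in both conditions.

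The change was not even along these loci. At 21 Mb the stretch chr13:21897111-21950995, with 15 regions of 7 amino acids, had a median of −0.68 in OL and −1.59 in OPC, and 14 of the 15 rose. Its aspartate region n-TDgtc11 (chr13:21901313-21913384) had the largest rise among the tRNA regions and among all 21534 regions. It scored 0.10, −0.24 and −0.26 in OL against −1.42, −1.93 and −1.43 in OPC. The groups stood more than 1 score unit apart, and the difference was 1.46 ± 0.15 (SE; adjusted p = 3.94e-04, limma). Its nearest neighbour, the microRNA region Mir1983, overlaps it and rose by 1.11.

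The methionine region n-TMcat2, the first of that stretch, scored −0.18, −0.32 and −0.22 in OL against −1.49, −1.65 and −1.38 in OPC, a rise of 1.27. Differences in the stretch ran from 0.53 to 1.46, and the last region, the serine gene n-TSaga8, rose by 0.59, with means of −1.66 in OL and −2.25 in OPC. Over 1 score unit, 28 regions of the whole table rose, and 7 of them were tRNA regions, 6 of these in this stretch. By contrast the first stretch at 21 Mb, 9 regions of 6 amino acids (chr13:21151405-21182942), had a median of −2.42 in both conditions and a median difference of 0.13. The isoleucine region n-TIaat10 (chr13:21880033-21892106) lies just before the stretch of the largest rise. It scored −0.29, −0.26 and −0.32 in OL against −1.24, −1.25 and −1.28 in OPC, and rose by 0.97 ± 0.07 (SE; adjusted p = 9.20e-05, limma). Another alanine region of the first chain, n-TAagc17, had a mean of −0.92 in OL and −1.83 in OPC.

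In the 23 Mb locus 22 of 45 regions rose and 1 fell. The 6 regions of the stretch chr13:23288781-23319538, of alanine, isoleucine, methionine and valine, all rose and had a median of −0.16 in OL and −0.99 in OPC. The isoleucine region n-TIaat9 there scored 0.40, 0.07 and −0.01 in OL against −1.04, −0.57 and −0.73 in OPC. The alanine region n-TAagc12 (chr13:23398795-23410867) scored −0.50, −0.10 and −0.34 in OL against −1.18, −1.23 and −1.37 in OPC and rose by 0.95 ± 0.11 (SE; adjusted p = 5.79e-04, limma). Its nearest other gene, Abt1, lay 5493 bp away with a mean of −1.98 in OL and −2.27 in OPC. By amino acid, 7 of the 8 valine regions of the locus rose, with a median of −0.37 in OL and −1.29 in OPC, against 1 of 6 tyrosine regions, with medians of −2.11 in OL and −2.12 in OPC. The tyrosine regions lie together in 1 stretch and the valine regions mostly outside its low part, so amino acid and position cannot be told apart here.

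In all, 4 tRNA regions (0.935%, against 0.748% of all regions) were above 0 in every OL library and below 0 in every OPC library. The reverse was found in 0 tRNA regions, against 0.539% of all regions, so few regions of either kind crossed 0. The valine region n-TVaac4 and the alanine region n-TAagc10 overlap at 23 Mb of chromosome 13 and so are close to 1 measurement. The region n-TVaac4 scored 0.52, 0.48 and 0.51 in OL against −0.54, −0.31 and −0.09 in OPC. The methionine region n-TMcat12 scored 0.46, 0.12 and 0.01 in OL against −0.98, −0.52 and −0.70 in OPC, and its OL mean was not called above 0 (adjusted p = 0.0784, limma). The fourth was the cysteine region n-TCgca9 of the chromosome 6 array, with means of 0.27 in OL and −0.07 in OPC.

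Outside chromosome 13 the largest rise was in the proline region n-TPtgg3 of chromosome X (chrX:14700616-14712687), which lies 395898 bp from the nearest other region. It scored 1.11, 1.33 and 1.41 in OL against 0.02, 0.20 and 0.45 in OPC, above 0 in all 6 libraries, and rose by 1.06 ± 0.12 (SE; adjusted p = 5.42e-04, limma). The 4 regions at 19 Mb of chromosome 3, of tyrosine, alanine and arginine, all rose and had a median of 0.49 in OL and 0.09 in OPC. Rises were found at 37 loci and in 20 of the 22 amino acid groups. They were most numerous among alanine and cysteine regions, with 14 each, which are also the largest groups.

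Single rises outside the 3 chromosome 13 loci occurred at low and at high scores, as the following regions show, which were picked out after their values were seen. The isoleucine region uc033hpo.1 (chr2:119054153-119066226) scored −2.07, −1.76 and −2.04 in OL against −3.12, −2.64 and −2.81 in OPC and rose by 0.90, while the region of the kinetochore gene Casc5 that it overlaps rose by 0.35. The lysine region n-TKctt24 of chromosome 7 had a mean of −2.13 in OL and −2.91 in OPC, and Rinl, which it overlaps, rose by 0.43, to −1.89 in OL, against −2.31 in OPC. Among high regions, the lysine region n-TKctt6 of chromosome 13, outside the 3 loci, scored 1.99, 2.10 and 2.13 in OL against 1.59, 1.65 and 1.58 in OPC. The lysine region uc033gxz.1 of chromosome 16 scored 1.33, 1.07 and 1.22 in OL against 0.45, 0.64 and 0.70 in OPC, while its neighbour Igll1, 2334 bp away, was below 0 with means of −0.71 in OL and −0.95 in OPC and was not called between conditions (adjusted p = 0.0571, limma). In the first 2 cases the overlapping gene region rose by less than the tRNA region.

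The 19 falls lay in 19 different stretches and 19 loci, and in 11 amino acid groups. The methionine region n-TMcat4 (chr15:88631532-88643604) had the largest fall, with −0.94, −1.27 and −1.30 in OL against −0.24, −0.09 and −0.22 in OPC. The groups stood well apart, and it fell by 0.99 ± 0.10 (SE; adjusted p = 4.51e-04, limma), while its nearest neighbour Zdhhc25 had means of −0.46 in OL and −0.22 in OPC. The arginine region n-TRacg2 of chromosome 9 scored −2.64, −1.60 and −1.71 in OL against −0.89, −1.22 and −1.10 in OPC, with OL library 18 far below the other OL libraries, and fell by 0.92 ± 0.24 (SE; adjusted p = 0.0167, limma). With an ordinary linear model, which gives each region its own variance, this fall was not called (adjusted p = 0.139). It overlaps Sacm1l, whose mean was −0.71 in OL and −0.06 in OPC.

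The serine region n-TSgct1 (chr1:182046008-182058089) scored −2.69, −2.57 and −2.69 in OL against −1.98, −1.92 and −1.50 in OPC, a fall at an already low score. The arginine region n-TRtct5 (chr1:173380329-173392402) came near to 0, with 0.09, −0.03 and 0.18 in OL against 0.65, 0.64 and 0.70 in OPC. The lysine region uc033jgh.1 of chromosome 8 fell while staying strongly positive, with a mean of 1.92 in OL and 2.36 in OPC, and its nearest region, that of the Hedgehog-binding gene Hhip, had 1.29 in OL and 0.91 in OPC. The valine region uc033ivo.1 of chromosome 6 had a mean of −0.55 in OL and −0.02 in OPC. Falls were thus found from strongly negative to strongly positive scores.

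**Figure D5:**
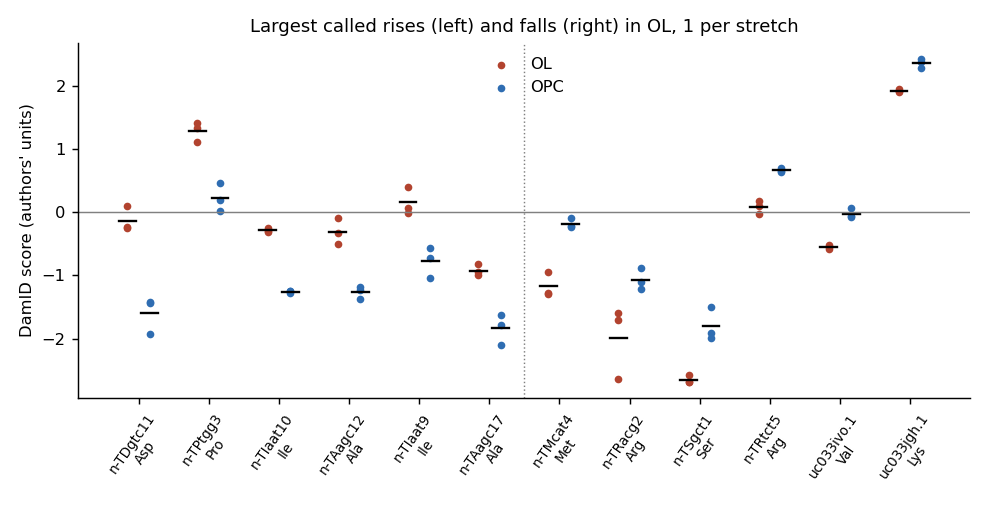
Scores of the tRNA regions with the 6 largest called rises (left of the dotted line) and the 6 largest called falls (right), at most 1 per stretch. The x axis names the region and its amino acid, the y axis is the DamID score in the authors' units, points are single libraries (OL red at left of each pair, OPC blue at right) and bars are means of 3. The groups do not overlap in any of the 12 regions, which were chosen by their difference in these same libraries (48.9% of all regions do not overlap). In n-TRacg2 1 OL library lies far below the other 2.

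The genes of the proteins that make and use tRNAs, with some other RNA polymerase III factors, were set beside the tRNA regions as 6 lists with 127 genes. In OL 118 were called below 0 and 7 above, against 70.9% and 25.9% of all regions, and in OPC 120 were called below and 6 above, against 71.4% and 25.5% of all regions. Between conditions 45 rose, 9 fell and 73 passed in neither direction, with a median difference of 0.20. Both shares can be read against the whole table, where 23% of regions rose and 10.9% fell.

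The cytosolic aminoacyl-tRNA synthetases, which load amino acids onto tRNAs, were called below 0 in all 21 cases in both conditions, and 7 rose and 2 fell. The highest was the leucyl enzyme Lars with means of −0.34 in OL and −0.66 in OPC, and the lowest the tyrosyl enzyme Yars with −2.83 in OL and −3.11 in OPC. The valyl enzyme Vars rose by 0.54 and the aspartyl enzyme Dars fell by 0.54. Of 17 mitochondrial synthetases 9 rose and 1 fell. The tryptophanyl enzyme Wars2 was their highest with 1.01 in OL and 1.09 in OPC, Tars2 was the lowest with −2.19 in OL and −2.65 in OPC, and Yars2 rose to 0.20 in OL, against −0.41 in OPC. Lars2 fell by 0.59, to −1.48 in OL, against −0.89 in OPC.

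Of the 13 listed genes for RNA polymerase III subunits, which are not all of its subunits, Polr3g alone was above 0. It had a mean of 1.51 in OL and 1.41 in OPC. Of the 13 genes 3 rose and 1 fell. The largest rise was 0.62 in Polr1c, a subunit shared with RNA polymerase I, and the fall was 0.45 in Polr3f (values −1.50 in OL and −1.05 in OPC). The list of 17 genes for TFIIIB, TFIIIC and regulators also holds Gtf3a, Brf2 and Snapc1 to Snapc5. Of the 17 genes 7 rose, with Snapc4 and Snapc5 among them, and 1 fell. Gtf3c3, a TFIIIC subunit, was the highest with 0.66 in OL and 0.30 in OPC, and Tbp, the TATA-binding protein gene, was the lowest by the mean of all 6 libraries, with −2.47 in OL and −3.17 in OPC, and also had the largest rise. Gtf3c1 fell by 0.29, a call lost in 6 of the alternative settings (adjusted p up to 0.108, limma or the ordinary linear model).

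Of 22 genes of tRNA processing and export 5 rose and 1 fell. Trnt1, which adds the CCA end, was above 0 with 0.93 in OL and 0.68 in OPC, the exportin gene Xpo5 was the lowest by the mean of all 6 libraries with −2.33 in OL and −2.80 in OPC, and Rpp30, of the 5′-trimming ribonuclease P, rose to −0.43 in OL, against −1.33 in OPC. Elac1 fell by 0.41. Among 37 genes of tRNA modification 14 rose and 3 fell, with Alkbh8 the highest by the mean of all 6 libraries, at 0.98, 1.34 and 1.25 in OL against 0.91, 0.96 and 0.91 in OPC, and Dus1l the lowest at −2.50 in OL and −2.63 in OPC. The methyltransferase gene Trdmt1 rose by 0.73 and Qtrtd1 fell by 0.53. Most genes of each list were low in both conditions, as were most tRNA regions.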

How the data were processed

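Per the labels' protocols, methylated DNA was amplified by methylation-specific PCR before library preparation. The submitters' processing notes name the mm10 build, BWA 0.7.17 and cutadapt 1.9.1. The step that made scores from reads is not given in the sources used. The authors deposited 1 score per region for each Dam-LMNB1 library, taken against the pooled Dam libraries of its condition per the file headers. The authors also deposited a p-value and an adjusted p-value per region, whose calls are named where used. Deposited starts were 1 bp below those of RefSeq in all 399 matched tRNA genes, so starts are printed with 1 added (mm10).

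The scores were used as deposited, with no filter. limma 3.58.1 (R 4.3.3; lmFit and eBayes with a variance trend) was fitted to all 21534 regions and 6 libraries, with 1 mean per condition, a two-sided test and Benjamini-Hochberg adjustment at 0.05 over all regions. The fit was tested on simulated data first. No batch is given in the labels. The planned design allowed for values of the Dam libraries, which are not analysed here on their own. Named tRNA regions were the 3 highest and 3 lowest per condition and the 6 largest called rises and falls, each at most 1 per stretch. The selenocysteine and suppressor regions were also named. So were the highest and lowest of each locus with at least 5 regions, by the mean of all 6 libraries. Of all these, those that add to the text are printed. Pathway genes were the highest, the lowest and the largest called rise and fall of each list. Other members are named where a locus or stretch is described, and were chosen after their values were seen. Members and lists were chosen with earlier results of these data known. Alternatives were other scalings of the libraries, no variance trend, an ordinary linear model, a threshold of 0.01, 1 region per stretch, leaving out each library or a locus, and the authors' adjusted p. With depth unknown, counting error has no interval. The values of some genes that these rules select are not reported here.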

Additional observations from a re-analysis of the deposited data

How the results depend on the processing

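Counting the first region of each stretch gave 57 tRNA regions above and 121 below 0 in OL, 124 below 0 in OPC, and 45 higher in OL. An ordinary linear model gave 50 higher and 6 lower in OL, an adjusted p threshold of 0.01 gave 61 higher and 5 lower, and the authors' deposited adjusted p gave 7 higher and 0 lower (1.64% of tRNA regions, against 3.14% of all regions; 85 and 12 at their unadjusted p under 0.05). Without the 3 chromosome 13 loci, an alternative chosen after seeing the data, 59 were higher. Leaving out 1 library at a time gave 90 to 99 above and 306 to 310 below 0 in OL, 69 to 75 above and 319 to 322 below 0 in OPC, and 92 to 112 higher and 10 to 18 lower in OL. The falls numbered 10 without OL library 19 or 20 and 12 without OPC library 9. Quantile normalization, setting the libraries to the same mean and SD, dropping the variance trend and leaving out the largest locus kept every one of these counts within 1.5 times its value.

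The OL mean of n-TKctt19 changed sign, to −0.020 after quantile normalization, −0.021 with libraries set to the same mean and SD and −0.066 without OL library 19, and leaving out 1 library at a time gave −0.066 to 0.0368. The rise or fall of n-TRacg2, Vars, Gtf3c1, Elac1 and Qtrtd1 missed the threshold in at least 1 alternative; the cause was not tested. Grouping by gaps under 1 Mb gave 124 groups of tRNA regions in place of 135 loci. No paired analysis was possible because the OL and OPC libraries share no replicate number. Unknown read depth limits how far a wide spread between libraries, as in n-TEctc5, can be read.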
